A study of Mus musculus with 24 samples.

Results

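The zona pellucida and sperm receptor genes are the genes whose products build the coat of the mouse egg and bind or admit sperm. They were taken as the genes of the count file named Zp1, Zp2, Zp3, Izumo1r, Cd9, Astl and Oosp1. The rule uses gene names and no measured value. All 7 were among the 55401 genes of the file, and all 7 were among the 16736 genes with enough counts to be tested.

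A growing oocyte secretes ZP1, ZP2 and ZP3, which polymerise into the zona pellucida, the glycoprotein matrix around the egg. ZP2 and ZP3 form the filaments and ZP1 links them. Sperm that cross the matrix bind JUNO, the product of Izumo1r, a protein held on the egg membrane by a lipid (GPI) anchor, and membrane fusion needs the tetraspanin CD9. After fertilization, cortical granules release ovastacin, the protease encoded by Astl, which cleaves ZP2 so that no further sperm bind. Oosp1 encodes a secreted oocyte protein of the same surface-protein family as the placental gene Plac1, and its role in fertilization is less settled. All of these genes are transcribed during oocyte growth, and the fully grown oocyte enters meiotic maturation with stored transcripts.

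RNA of mouse oocytes was sequenced from pools of 5 oocytes, after whole-cDNA amplification, in 12 deposited libraries that form 6 groups of 2. The group con was a control, and in vivo PSMPs was the group exposed in the animal to polystyrene microplastics (PSMPs). The group con-in vitro was the control of the culture experiment, and in vitro PSMPs was exposed in culture. The SAHA group received the histone deacetylase inhibitor also called vorinostat, and PSMPs & OE-Hdac3 was exposed to the particles while overexpressing the histone deacetylase gene Hdac3. The labels give no strain, age, dose, exposure time or oocyte stage, and do not say whether replicate libraries came from separate animals, so that p-values measure only the spread between these libraries. They also do not state which control belongs to SAHA or by which route the Hdac3-overexpressing oocytes were exposed, and each was therefore compared with both candidates. Pools of whole oocytes were lysed, so fewer cells and less RNA per cell cannot be told apart.

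Library totals ran from 6219784 to 35637689 counts, with both con-in vitro libraries at the low end. Divided by these totals, the floor of 3 counts lay between 0.0842 and 0.482 counts-per-million units (CPM). The counts of the paired columns from in vivo PSMPs agreed within sampling noise, with a chi-square of 0.444 per degree of freedom where the replicates of other groups gave 16.5 to 384, and were used as 1 library, which left 11. Detected genes numbered 11640 to 12843 in the 4 control libraries and 17722 to 20957 in the others. Hdac3, the overexpressed gene, stood at 336 and 228 CPM in PSMPs & OE-Hdac3 and between 7.17 and 37.4 CPM in the other libraries. The 10 oocyte markers, which include none of the 7 genes, were all detected in every library. Their summed level was 35004 and 37688 CPM in con and 24155 CPM in the in vivo PSMPs library, 23715 to 31731 CPM in in vitro PSMPs and SAHA, 14032 and 16706 CPM in PSMPs & OE-Hdac3, and 8422 and 8620 CPM in con-in vitro. CPM values here, other than the floors and values given by library totals, are scaled by the trimmed mean of M-values (TMM). They do not correct for gene length.

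The con libraries stood apart from each other in 5 of the 7 genes, which bears on each comparison with that group. Over the 3394 genes with a mean of at least 50 CPM across all 11 libraries, the median absolute difference between the replicates was 0.57 on the log2 scale. Zp2 differed by 2.34 on that scale, Izumo1r by 2.17, Cd9 by 1.88, Zp3 by 1.85 and Zp1 by 1.69, each with con replicate 2 above con replicate 1. Between 87.7% and 93.3% of those genes differed by less. Astl and Oosp1 differed by 0.094 and 0.16 between the same libraries. In con-in vitro, Cd9 differed by 2.81, Zp1 by 1.48, Zp3 by 1.47 and Oosp1 by 1.20.

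Of the zona genes, Zp1 lies on the minus strand at chr19:10914287-10920632 (ENSMUSG00000024734.8), Zp2 on the minus strand at chr7:120126772-120145291 (ENSMUSG00000030911.7) and Zp3 on the plus strand at chr5:135980099-135988624 (ENSMUSG00000004948.12), all on the mouse build mm10. Transcription factors that bind the E-box, a site spelled CANNTG, drive zona gene transcription in oocytes, among them the product of Figla with its partners. The promoter of Zp3 is printed because it holds 3 such matches. The letters CACGTG stand 181 bases before the RefSeq start, the letters CAGATG stand 134 bases before it and the letters CAGGTG stand 55 bases before it. It covers the 244 bases upstream of the gene model (chr5:135979855-135980098, plus strand, GRCm38.p6, the assembly of mm10), and capitals mark the E-boxes.
Zp3 promoter: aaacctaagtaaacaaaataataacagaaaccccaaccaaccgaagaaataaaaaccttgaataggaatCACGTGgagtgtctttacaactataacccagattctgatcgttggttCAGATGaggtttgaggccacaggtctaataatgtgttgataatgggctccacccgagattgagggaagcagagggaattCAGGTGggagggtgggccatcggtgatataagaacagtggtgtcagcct
RefSeq promoters of this window were on hand for 5 of the 7 genes, and Zp1 and Zp2 were not among them. A match to CANNTG was present in 66.2% of all 32851 promoters in the 250 bases before the start, with a median of 1 match, and a match to CACGTG, looked for after the sequences were seen, in 6.02%. The letters CACGTG are a special case of CANNTG, and N stands for any base. Izumo1r had 1 match, Cd9 had 3 and Oosp1 had 5. None of the 5 promoters held, on either strand, the motif TATAAA, which 12.4% of all promoters held, the homeobox-type motif TAATTG, which 7.17% held, or its variant TAATTA, which 4.84% held.

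Zp1, the linker of the zona filaments, stood at 162 and 528 CPM in con, at 788 CPM in in vivo PSMPs, at 223 and 621 CPM in con-in vitro, at 1606 and 1776 CPM in in vitro PSMPs, at 2850.4 and 3395 CPM in SAHA, and at 435 and 443 CPM in PSMPs & OE-Hdac3. Zp2, the substrate of ovastacin, stood at 118 and 602 CPM in con, at 1110.0 CPM in in vivo PSMPs, at 587 and 721 CPM in con-in vitro, at 2150.0 and 3328 CPM in in vitro PSMPs, at 5392 and 5664 CPM in SAHA, and at 671 and 797 CPM in PSMPs & OE-Hdac3. Zp3, the partner of ZP2 in the filament, stood at 379.8 and 1371 CPM in con, at 1790.5 CPM in in vivo PSMPs, at 616 and 1706 CPM in con-in vitro, at 3274 and 2891 CPM in in vitro PSMPs, at 4216 and 5096 CPM in SAHA, and at 912 and 923 CPM in PSMPs & OE-Hdac3. With TMM, the SAHA libraries were highest for each of the 3 genes. The in vitro PSMPs libraries came next and the in vivo PSMPs library followed, with no overlap between these groups. By library totals, Zp3 in SAHA (3876 and 4608 CPM) overlapped in vitro PSMPs (4022 and 2850 CPM). The con, con-in vitro and PSMPs & OE-Hdac3 libraries lay below SAHA, in vitro PSMPs and in vivo PSMPs. With TMM they overlapped each other, except that for Zp2 both PSMPs & OE-Hdac3 libraries were above both con libraries. By library totals, both PSMPs & OE-Hdac3 libraries were above both con-in vitro libraries for Zp1, Zp2 and Zp3. Zp1 was then at 681 and 692 CPM against 121 and 355 CPM, and Zp3 at 1429 and 1443 CPM against 334 and 975 CPM. The PSMPs & OE-Hdac3 replicates nearly coincided for Zp1 and Zp3, with differences of 0.026 and 0.017 on the log2 scale.

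**Figure D1:**
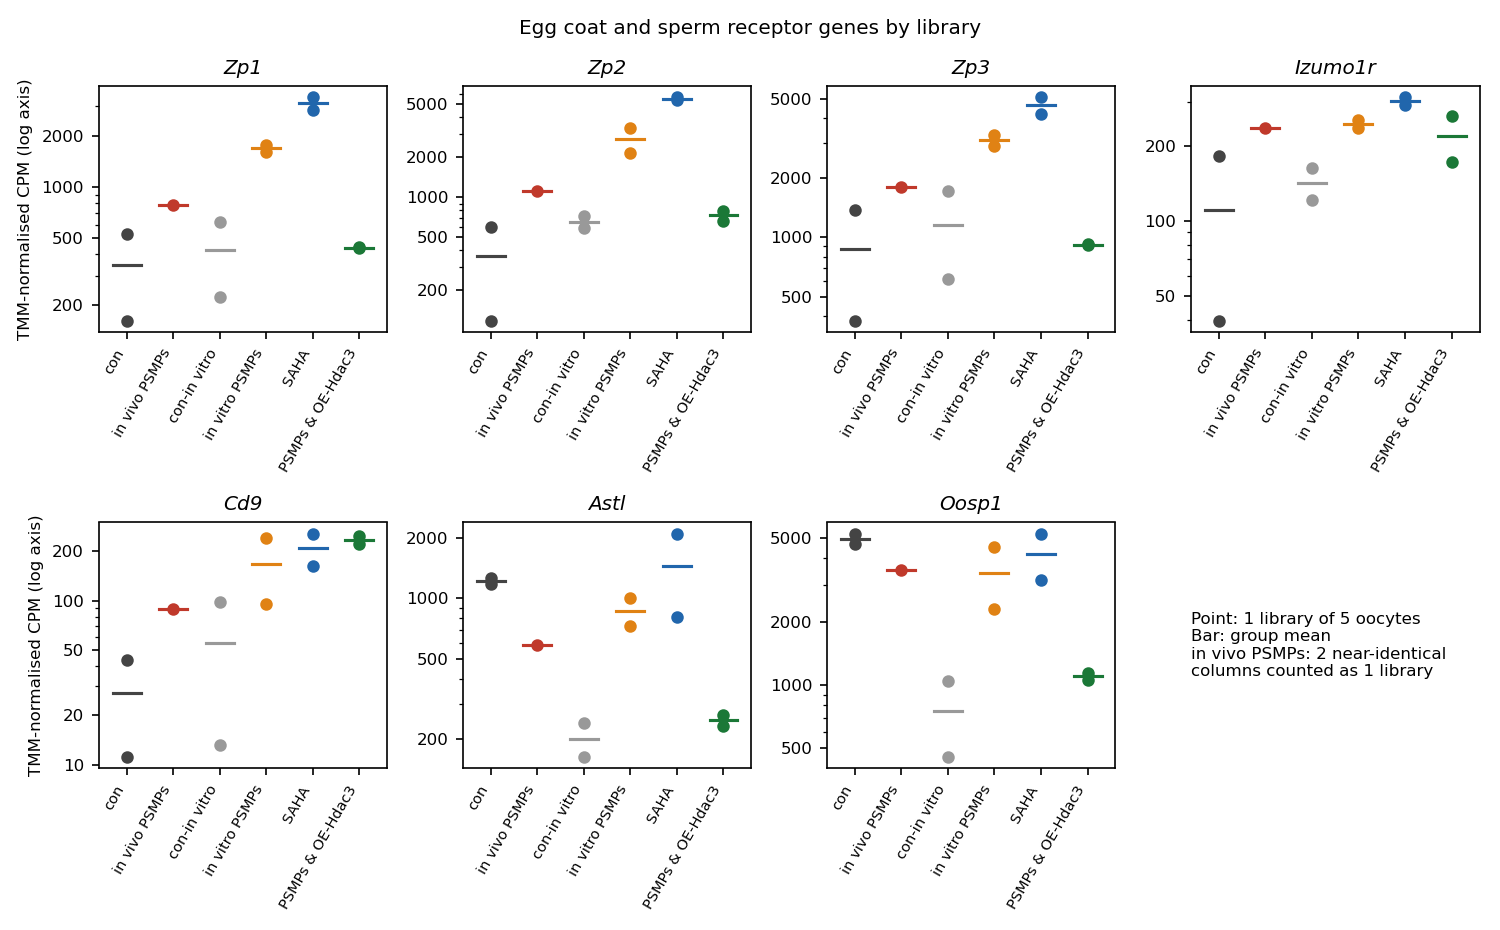
TMM-scaled CPM (log axis) of the 7 genes in each of the 11 libraries, by group, with points for libraries and bars for group means. Zp1, Zp2 and Zp3 are highest in both SAHA libraries, and Astl and Oosp1 are low in con-in vitro and PSMPs & OE-Hdac3.

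Divided by exon length, Zp3 was the most abundant zona transcript in every group, at a mean of 662 CPM per kilobase in con, 1353 in in vivo PSMPs, 878 in con-in vitro, 2330 in in vitro PSMPs, 3519 in SAHA and 693 in PSMPs & OE-Hdac3. Of the length-corrected counts of the 3 zona genes, Zp3 made up 69.6% and 68.0% in con and 48.2% and 50.4% in SAHA. Zp2 made up 10.5% and 14.5% of them in con and 30.0% and 27.2% in SAHA, so that both SAHA libraries held relatively more Zp2 and less Zp3 than both con libraries. In in vivo PSMPs the Zp2 share was 18.9%, in con-in vitro it was 27.1% and 14.2%, in in vitro PSMPs 19.4% and 28.4%, and in PSMPs & OE-Hdac3 21.3% and 24.1%. The Zp2 share was thus above both con libraries in every library but con-in vitro replicate 2, where it was 14.2%, while con-in vitro and in vitro PSMPs overlapped. The share of Zp1 ran from 14.2% to 22.4%. These shares are ratios within a library and do not depend on the scaling between libraries, and differences between groups in them were not tested.

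**Figure D2:**
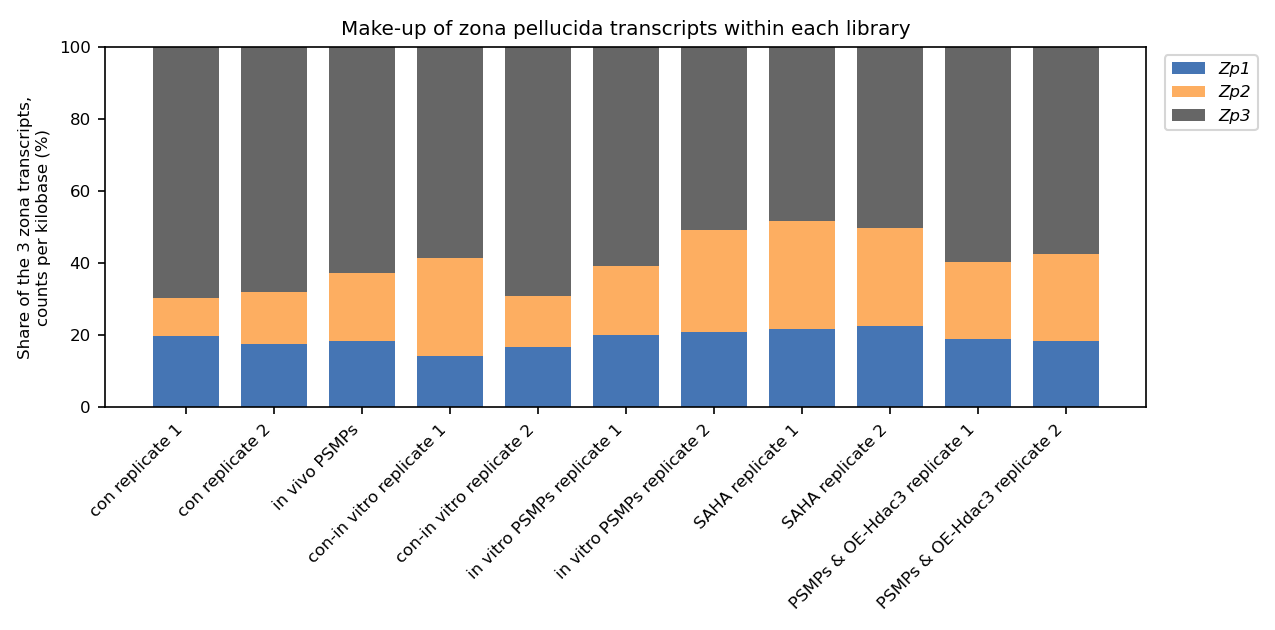
Stacked bars give the share (%) of Zp1, Zp2 and Zp3 in the length-corrected counts of the zona genes, 1 bar per library. Zp3 takes 69.6% and 68.0% in con and 48.2% and 50.4% in SAHA, where Zp2 takes 30.0% and 27.2%.

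Among the receptor genes, Izumo1r lies on the minus strand at chr9:14885814-14903949 (ENSMUSG00000031933.17) and Cd9 on the minus strand at chr6:125460266-125494791 (ENSMUSG00000030342.8). Izumo1r, which encodes the receptor JUNO, stood at 39.7 and 182 CPM in con, at 236 CPM in in vivo PSMPs, at 121 and 163 CPM in con-in vitro, at 236 and 254 CPM in in vitro PSMPs, at 313 and 292 CPM in SAHA, and at 172 and 264 CPM in PSMPs & OE-Hdac3. With TMM its SAHA libraries were above all others, and its con and con-in vitro libraries overlapped. By library totals the SAHA libraries (288 and 264 CPM) were below in vivo PSMPs (300 CPM). They also overlapped PSMPs & OE-Hdac3 (269 and 412 CPM) on that scale. Cd9, the fusion tetraspanin, stood at 11.1 and 43.3 CPM in con, at 89.0 CPM in in vivo PSMPs, at 97.9 and 13.1 CPM in con-in vitro, at 241 and 95.3 CPM in in vitro PSMPs, at 163 and 256 CPM in SAHA, and at 247 and 221 CPM in PSMPs & OE-Hdac3. With TMM its SAHA, in vitro PSMPs and PSMPs & OE-Hdac3 libraries overlapped, and these groups had the highest means. By library totals, PSMPs & OE-Hdac3 (388 and 346 CPM) was above SAHA (150 and 232 CPM) and in vitro PSMPs (296 and 94.0 CPM). In vitro PSMPs replicate 2 was nevertheless below con-in vitro replicate 1 with TMM, though above it by library totals (53.1 CPM). Con-in vitro replicate 1 was far above its own replicate. The granulosa gene Gja1 stood at 48.7 CPM in con-in vitro replicate 1 and at 2.19 CPM in con-in vitro replicate 2. It belongs to a list of 18 cumulus and granulosa markers, most of which had no counts in either library. In con-in vitro replicate 1, 5 of the 18 were detected and 13 were not, and in con-in vitro replicate 2, 3 were detected and 15 were not. The part of these markers in the Cd9 value was not tested. Cumulus and granulosa cells surround the oocyte, and Cd9 is also made in many somatic cells. Per kilobase, the group means of Izumo1r ran from 47.7 to 130.3 CPM and those of Cd9 from 13.3 to 115 CPM, below those of Zp3 in each group.

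Astl, the gene of the cortical granule protease ovastacin, lies on the plus strand at chr2:127338639-127357651 (ENSMUSG00000050468.12). RefSeq gives it more than 1 start. The promoter at the first base of the gene model held no E-box, and that at the second start, base 127341636, held 3 with the same letters, CAGGTG, at 109, 83 and 59 bases before the start. It is printed for that repeat, over 244 bases that lie inside the gene model and outside its exons (chr2:127341386-127341629, plus strand, GRCm38.p6), with the E-boxes in capitals.
Astl promoter: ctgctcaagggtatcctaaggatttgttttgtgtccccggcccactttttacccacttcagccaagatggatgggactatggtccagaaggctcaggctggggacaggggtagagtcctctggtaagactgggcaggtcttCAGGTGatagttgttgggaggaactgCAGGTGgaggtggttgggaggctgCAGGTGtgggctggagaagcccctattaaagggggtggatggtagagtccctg
Astl stood at 1256 and 1177 CPM in con, at 588 CPM in in vivo PSMPs, at 163 and 241 CPM in con-in vitro, at 728 and 1001 CPM in in vitro PSMPs, at 811 and 2090.3 CPM in SAHA, and at 266 and 233 CPM in PSMPs & OE-Hdac3. The SAHA libraries spanned those of con, and the in vitro PSMPs libraries were below both con libraries. The con-in vitro and PSMPs & OE-Hdac3 libraries were the lowest and overlapped with TMM. By library totals they did not overlap, at 88.4 and 138 CPM in con-in vitro and 416 and 365 CPM in PSMPs & OE-Hdac3. The SAHA replicates of Astl differed by 1.36 on the log2 scale, a larger difference than that of 99.1% of the 3394 genes with a mean of at least 50 CPM across libraries.

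Oosp1, the gene of the secreted oocyte protein, lies on the minus strand at chr19:11667460-11691150 (ENSMUSG00000041857.10). Of its 5 E-boxes, 2 fall in the 151 bases upstream of the gene model (chr19:11691151-11691301, minus strand, GRCm38.p6). They are in capitals in the stretch below, shown because Oosp1 was the most abundant of the 7 transcripts per kilobase in con.
Oosp1 promoter: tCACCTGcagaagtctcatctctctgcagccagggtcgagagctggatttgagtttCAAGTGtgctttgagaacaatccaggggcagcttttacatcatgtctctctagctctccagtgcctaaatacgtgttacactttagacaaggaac
Oosp1 stood at 4669 and 5231 CPM in con, at 3522 CPM in in vivo PSMPs, at 1044 and 453 CPM in con-in vitro, at 2303 and 4507 CPM in in vitro PSMPs, at 5189 and 3151 CPM in SAHA, and at 1054 and 1144 CPM in PSMPs & OE-Hdac3. The con-in vitro libraries were the lowest, the PSMPs & OE-Hdac3 libraries came next, and all other groups were higher. With TMM the PSMPs & OE-Hdac3 libraries lay just above con-in vitro replicate 1. By library totals they stood at 1652 and 1789 CPM, against 566 and 259 CPM in con-in vitro. On the per-kilobase scale Oosp1 had rank 5 among all genes in both con libraries and in in vivo PSMPs, and ranks 60 and 120 in con-in vitro. Its ranks were 5 and 13 in SAHA, 13 and 8 in in vitro PSMPs, and 9 and 10 in PSMPs & OE-Hdac3. Its length-corrected level was 16.7 and 5.19 times that of Zp3 in con, 2.68 times in in vivo PSMPs, 2.31 and 0.361 times in con-in vitro, and 0.842 to 2.12 times in the remaining libraries.

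Exposure in culture was compared with the culture control. Astl and Oosp1 passed the threshold as higher, and the zona and receptor genes lay above the control means without passing it. Astl went from 202 ± 54.8 CPM in con-in vitro to 864 ± 193 CPM in in vitro PSMPs (mean ± SD, n = 2 each), 4.28-fold higher, with a log2 change of 2.10 ± 0.46 (SE) and an adjusted p of 0.0163. Oosp1 went from 748 ± 418 to 3405 ± 1558 CPM, 4.55-fold higher (log2 2.19 ± 0.49, adjusted p = 0.0177). All adjusted p-values are from edgeR's quasi-likelihood test with Benjamini-Hochberg adjustment over the genes tested. These 2 calls stand against 15.4% of all genes called, 8.57% higher and 6.78% lower. The log2 change of Zp1 was 2.00 ± 0.60 (adjusted p = 0.0535), of Zp2 2.07 ± 0.63 (0.0565), of Zp3 1.41 ± 0.61 (0.144), of Cd9 1.60 ± 0.92 (0.251) and of Izumo1r 0.79 ± 0.60 (0.381). Of the 7 alternatives other than leaving out a column, Zp1 passed the threshold in 6 and Zp2 in 4. Each gene but Cd9 had both exposed libraries above both controls, as did 44.3% of all genes, and the median change was 2.00 over the 7 genes and 0.71 over all genes.

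Of the 10 oocyte markers, 6 also rose in in vitro PSMPs against con-in vitro, with a median log2 change of 2.18 over the 10, and their part in the changes of Astl and Oosp1 was not tested. The call of Astl was lost without con-in vitro replicate 1 (log2 1.84, adjusted p = 0.0748) or in vitro PSMPs replicate 2 (1.85, 0.0918). That of Oosp1 was lost without con-in vitro replicate 2 (1.71, 0.0751) or in vitro PSMPs replicate 2 (1.62, 0.114), and its change was 2.91 without con-in vitro replicate 1. With library totals in place of TMM, the median of all genes moved from 0.71 to 1.70 and 5 of the 7 genes were called higher, Zp1 at 2.97 and Zp2 at 3.02 among them, beside 3473 of all genes in place of 1435. Relative to that median, the changes of all 7 genes stayed above 0 under both scalings, with Izumo1r nearest to it at 0.79 with TMM and 1.77 with library totals.

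Exposure in the animal was compared with con. No gene of the 7 passed the threshold, against 4.88% of all genes and 4.59% called higher, and the count at an unadjusted p under 0.05 was 1, Zp2, beside 4402 of all genes. DESeq2's Wald test called 0 of the 7 and 2728 of all genes. The in vivo PSMPs library lay above both con libraries for Zp1, Zp2, Zp3, Izumo1r and Cd9 and below both for Astl and Oosp1, positions held by 45.6% and 22.6% of all genes. The log2 difference was 1.62 ± 0.71 for Zp2 (adjusted p = 0.187), 1.19 ± 0.68 for Zp1 (0.318), 1.03 ± 0.71 for Zp3 (0.411), 1.09 ± 0.70 for Izumo1r (0.377) and 1.71 ± 1.05 for Cd9 (0.354). For Astl it was -1.05 ± 0.56 (0.283) and for Oosp1 -0.49 ± 0.58 (0.672). The group counted as 1 library, so its spread was taken from the other groups.

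The in vivo result turned on which con library was used. Without con replicate 2, the log2 difference was 3.21 for Zp2 (adjusted p = 0.00361), 2.55 for Izumo1r (0.0101), 2.26 for Zp1 (0.0295) and 2.21 for Zp3 (0.0324), and these 4 of the 7 genes were called higher, beside 3539 of all 16736 genes. Without con replicate 1 none was called. Cumulus and granulosa markers summed to 158 CPM in in vivo PSMPs, with 14 of 18 detected, against 41.9 and 56.9 CPM in con, with 3 of 18 detected in each. The inhibin gene Inha stood at 59.4 CPM in in vivo PSMPs and at 0 in con. Their part in the values of Cd9 and the other genes was not tested.

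**Figure D3:**
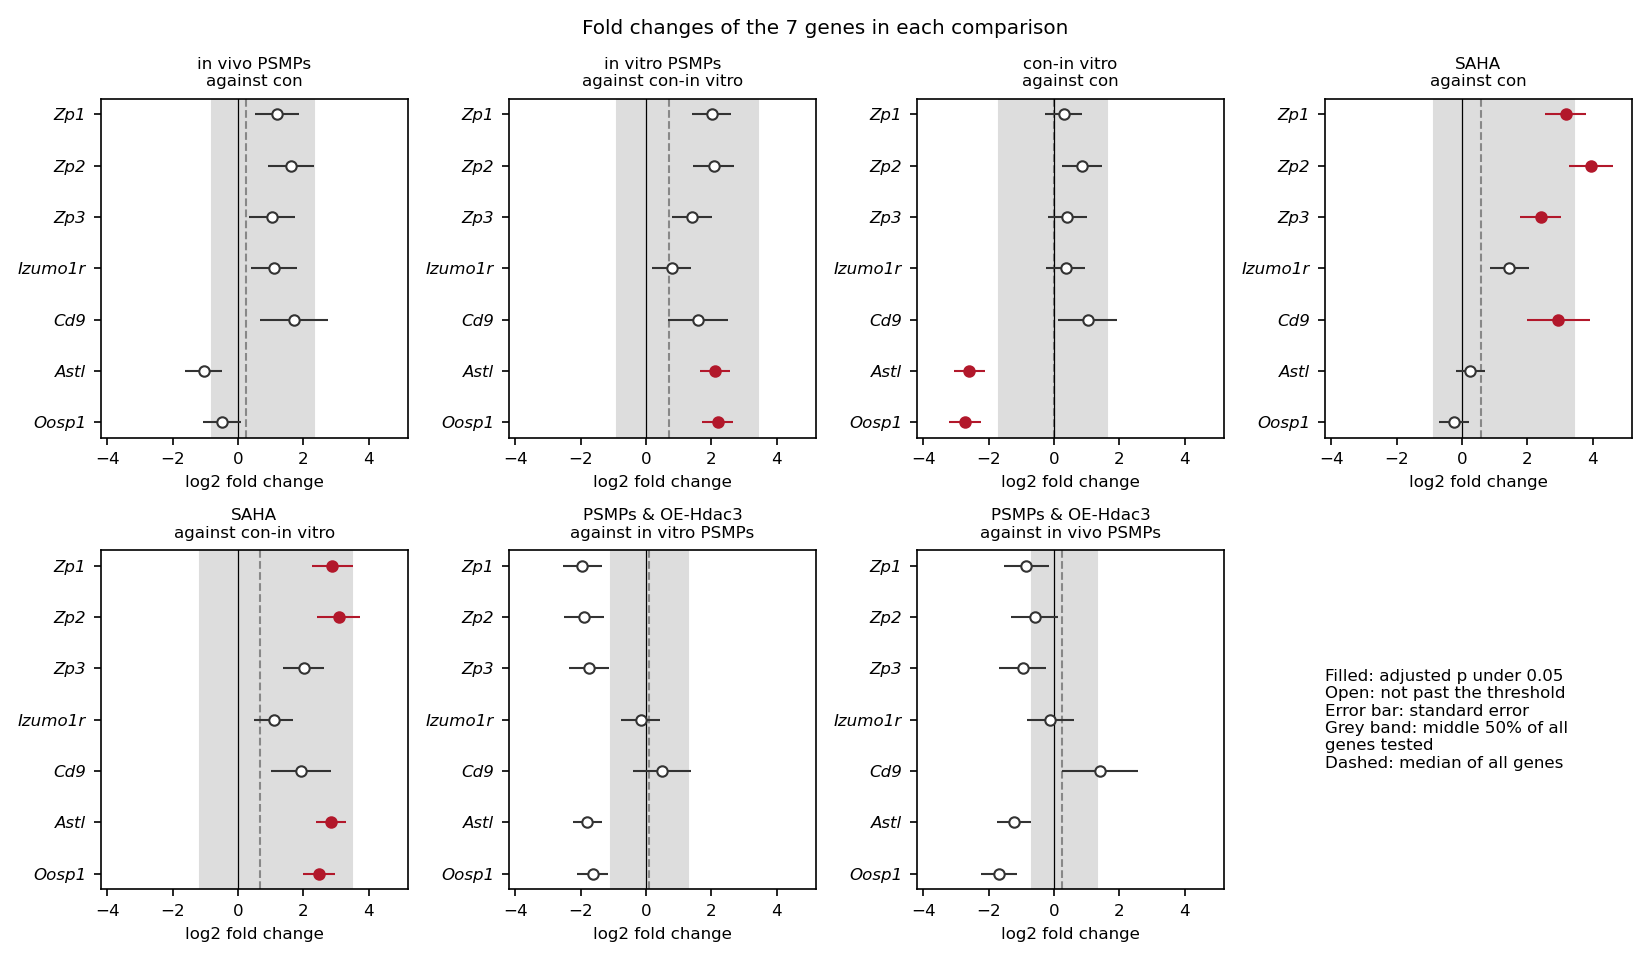
Log2 fold change with its standard error for each of the 7 genes, 1 panel per comparison, with filled symbols for an adjusted p below 0.05. The grey band is the middle 50% of all genes and the dashed line their median. Astl and Oosp1 are filled below 0 for con-in vitro against con and filled above 0 for in vitro PSMPs and for SAHA against con-in vitro.

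The effects of exposure in culture and in the animal were compared through the difference of the contrasts, which share no library. Astl differed between them, with an in vitro effect above the in vivo effect by 3.15 ± 0.74 on the log2 scale (adjusted p = 0.0292), against 11.3% of all genes called, 4.87% in that direction and 6.4% in the other. The contrast includes the gap between the controls, a log2 change of -2.59 in Astl and -2.73 in Oosp1 for con-in vitro against con. Astl had a mean of 864 CPM in in vitro PSMPs and 588 CPM in the in vivo PSMPs library. For Oosp1 the difference was 2.68 ± 0.78 (0.0580), and it passed with library totals (3.31, 0.0187) and with DESeq2 (2.70, 0.0128). For the zona genes it was 0.81 for Zp1 (0.676), 0.44 for Zp2 (0.921) and 0.38 for Zp3 (0.958), each of which turned below 0 without con replicate 2. For Izumo1r it was -0.31 and for Cd9 -0.11, both above 0 with library totals. The call of Astl was lost without con-in vitro replicate 1 (2.89, 0.0519), in vitro PSMPs replicate 1 (3.36, 0.0644) or in vitro PSMPs replicate 2 (2.90, 0.0976), and with a fit of only the compared groups (3.51, 0.0504). Of the 10 oocyte markers, 6 had a higher in vitro than in vivo effect, and their part was not tested.

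The controls were compared with each other. Astl and Oosp1 fell in con-in vitro, and the zona and receptor genes overlapped between the control groups. Astl went from 1217 ± 56.3 CPM in con to 202 ± 54.8 CPM in con-in vitro, 6.02-fold lower (log2 -2.59 ± 0.46, adjusted p = 0.00515). Oosp1 went from 4950.4 ± 397 to 748 ± 418 CPM, 6.61-fold lower (log2 -2.73 ± 0.50, adjusted p = 0.00557). These calls stand against 25.1% of all genes called, 10.5% lower and 14.7% higher, and both groups were apart for these 2 of the 7 genes, as they were downward for 23% of all genes. Both calls were kept in all 19 alternatives, with adjusted p-values of 2.49e-05 to 0.0315 for Astl and 2.77e-05 to 0.0336 for Oosp1, whose change was -3.45 without con-in vitro replicate 1. Of the 10 oocyte markers 6 fell as well, with a median log2 change of -1.70 over the 10, and their part was not tested.

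In the same comparison, the log2 difference was 0.86 for Zp2 (adjusted p = 0.358), 0.41 for Zp3 (0.732), 0.29 for Zp1 (0.831), 0.36 for Izumo1r (0.770) and 1.03 for Cd9 (0.483). With library totals, where the median of all genes moved from 0 to -0.49, these became -0.07 for Zp2, -0.50 for Zp3, -0.61 for Zp1, -0.57 for Izumo1r and 0.07 for Cd9. Without con replicate 2, Zp2 (2.29, 0.00273) and Izumo1r (1.66, 0.0162) were called higher in con-in vitro, beside 3725 of all genes. Cd9 was at -1.05 without con-in vitro replicate 1.

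SAHA was compared with con and with con-in vitro, and these comparisons share the SAHA libraries. Against con, Zp1, Zp2, Zp3 and Cd9 rose. Zp2 went from 360.1 ± 342 to 5528 ± 192 CPM, 15.4-fold higher (log2 3.94 ± 0.68, adjusted p = 0.00886), and Zp1 from 345 ± 258 to 3123 ± 385 CPM, 9.05-fold higher (3.18 ± 0.63, 0.0120). Zp3 went from 876 ± 701 to 4656 ± 622 CPM, 5.32-fold higher (2.41 ± 0.63, 0.0243), and Cd9 from 27.2 ± 22.8 to 209.7 ± 65.7 CPM, 7.70-fold higher (2.94 ± 0.96, 0.0493). The 4 calls stand against 27% of all genes called, 20.2% higher and 6.75% lower. Izumo1r, at 1.45 ± 0.60 (0.106), had SAHA libraries above both con libraries, as did 44.2% of all genes. Astl, at 0.25 ± 0.44 (0.717), and Oosp1, at -0.25 ± 0.47 (0.742), overlapped, and each turned in sign without SAHA replicate 2. In the same comparison 3 of the 10 oocyte markers rose and 1 fell. Of the 13 tested cumulus and granulosa markers 3 rose (median log2 change 3.74), summing to 62.9 and 69.3 CPM in SAHA, as did the only tested leukocyte marker and 1 of 2 tested fibroblast markers, and their part in the changes was not tested.

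Each of the 4 calls against con was lost without SAHA replicate 1, without SAHA replicate 2 and with a fit of only the compared groups. Without SAHA replicate 1 the values were 3.98 for Zp2 (adjusted p = 0.0549), 3.30 for Zp1 (0.0589), 2.54 for Zp3 (0.0745) and 3.23 for Cd9 (0.107). Without SAHA replicate 2 they were 3.90 for Zp2 (0.0542), 3.05 for Zp1 (0.0564), 2.27 for Zp3 (0.0929) and 2.58 for Cd9 (0.174). The sizes moved with the con library used. Without con replicate 1 the change was 3.20 for Zp2, 2.57 for Zp1, 1.76 for Zp3 and 2.27 for Cd9, and without con replicate 2 it was 5.35, 4.07, 3.42 and 4.04 in the same order. Cd9 lost its call in more alternatives than the zona genes did. It was also lost without con replicate 1 (0.102), without either in vitro PSMPs library or either PSMPs & OE-Hdac3 library (0.0728 to 0.0950), with library totals (0.0731), without the filter on low counts (0.0755) and with the replicate number as a block (0.0747).

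Against con-in vitro, Zp1, Zp2, Astl and Oosp1 rose in SAHA, and all 7 genes had both SAHA libraries above both controls, as did 45.3% of all genes. Zp2 was 8.45-fold higher (log2 3.08 ± 0.65, adjusted p = 0.0127), Zp1 7.40-fold higher (2.89 ± 0.62, 0.0132), Astl 7.18-fold higher (2.84 ± 0.47, 0.00373) and Oosp1 5.57-fold higher (2.48 ± 0.49, 0.00923). These stand against 19.8% of all genes called, 11.7% higher and 8.14% lower. Zp3 missed the threshold at 2.00 ± 0.62 (0.0512) and passed it in 6 of the 7 alternatives other than leaving out a column. The replicate number as a block was among these (2.14, 0.0381). Izumo1r stood at 1.09 ± 0.60 (0.216) and Cd9 at 1.92 ± 0.92 (0.164). The call of Astl was kept in all 19 alternatives (adjusted p 1.07e-06 to 0.0299). Of the 10 oocyte markers 6 rose as well, with a median of 2.14 over the 10, and their part was not tested.

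The other calls against con-in vitro each rested on particular libraries. Zp1 was lost without con-in vitro replicate 1 (2.33, 0.0551), SAHA replicate 1 (3.01, 0.0559) or SAHA replicate 2 (2.76, 0.0747), and stood at 3.81 without con-in vitro replicate 2. Zp2 was lost without con-in vitro replicate 1 (2.94, 0.0702), con-in vitro replicate 2 (3.24, 0.0645), SAHA replicate 1 (3.11, 0.0589) or SAHA replicate 2 (3.04, 0.0653). The call of Zp2 thus needed every library of both groups. Oosp1 was lost without SAHA replicate 1 (2.07, 0.0710). Cd9 was called without con-in vitro replicate 1, at 4.00 (0.0407), and Zp3 without con-in vitro replicate 2, at 2.92 (0.0449).

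Overexpression of Hdac3 in exposed oocytes was compared with exposure alone. Against in vitro PSMPs, 5 of the 7 genes lay below in both libraries, Zp1, Zp2, Zp3, Astl and Oosp1, a position shared by 34% of all genes. None passed the threshold with edgeR, against 4.83% of all genes and 2.98% called lower, while all 5 had an unadjusted p under 0.05, as did 3276 of all genes. All 5 were called lower by DESeq2's Wald test, which called 1444 of all genes lower. The log2 difference was -1.79 ± 0.45 for Astl (adjusted p = 0.0591, DESeq2 0.00591), -1.63 ± 0.48 for Oosp1 (0.0942, DESeq2 0.0230), -1.95 ± 0.60 for Zp1 (0.107, DESeq2 0.0201), -1.90 ± 0.62 for Zp2 (0.129, DESeq2 0.0304) and -1.75 ± 0.61 for Zp3 (0.156, DESeq2 0.04996). Over all alternatives, the adjusted p ran from 0.00295 to 0.316 for Astl and from 0.00203 to 0.432 for Zp1. The median difference was -1.75 over the 7 genes and 0.09 over all genes. Izumo1r stood at -0.17 ± 0.59 (0.907), which became 0.34 with library totals, and Cd9 at 0.48 ± 0.89 (0.814). Of the 10 oocyte markers 4 fell in this comparison, and their part was not tested.

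Against the in vivo PSMPs library, none of the 7 genes passed the threshold with edgeR, nor did any other gene (0% called), with 2 of the 7, Astl and Oosp1, at an unadjusted p under 0.05 and 0 of the 7 called by DESeq2's Wald test. Over all genes, 2407 had an unadjusted p under 0.05 and DESeq2 called 870. Both PSMPs & OE-Hdac3 libraries were below in vivo PSMPs for Zp1, Zp2, Zp3, Astl and Oosp1, as for 37.7% of all genes, and above it for Cd9, as for 49%. The log2 difference was -1.68 ± 0.55 for Oosp1 (adjusted p = 0.241), -1.24 ± 0.52 for Astl (0.323), -0.96 ± 0.71 for Zp3 (0.635), -0.85 ± 0.69 for Zp1 (0.687) and -0.60 ± 0.73 for Zp2 (0.854). It was 1.40 ± 1.16 for Cd9 (0.6996) and -0.12 for Izumo1r (0.994), the last of which was above 0 with library totals (0.18). With only these groups fitted, 6 of the 7 genes passed, along with 7215 of all genes. This comparison and the one above share the PSMPs & OE-Hdac3 libraries.

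The 7 profiles across the 11 libraries were closest to each other among the zona genes. Likeness was measured as the root mean square difference of log2(CPM + 1) values centred on each gene's mean, where 0 is an identical profile. Zp1 and Zp3 differed by 0.31, Zp1 and Zp2 by 0.46, and Zp2 and Zp3 by 0.63. Among all 3269 named genes of at least 50 CPM, Zp3 was the nearest to Zp1. Astl and Oosp1 differed by 0.65 and stood apart from Zp2 by 1.62 and 1.71. They were no close pair among all genes, since Oosp1 had rank 278 among the candidates for Astl, and Astl rank 310 among those for Oosp1. Izumo1r was at a like distance from Zp3 (0.68, rank 42 for Zp3 and 104 for Izumo1r). Cd9 was nearest to Izumo1r among the members (1.11) and farthest from Astl (1.94). The points share libraries and their scaling, so these are descriptions with no test.

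**Figure D4:**
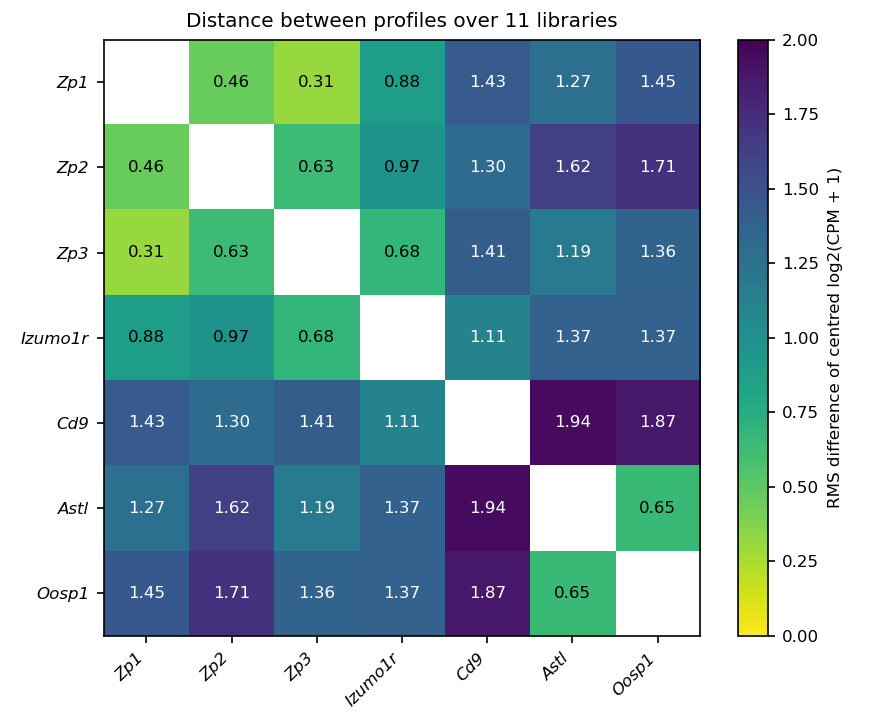
Heat map of the root mean square difference between centred log2(CPM + 1) profiles of each pair of the 7 genes over 11 libraries. The zona genes lie 0.31 to 0.63 apart, Astl and Oosp1 lie 0.65 apart, and Astl and Cd9 lie 1.94 apart.

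Outside the 7 genes, the nearest profiles were ranked by the same measure. For Zp1 they were those of Mtfr1l (0.40), Pinlyp (0.42) and Anapc11 (0.44), the last a subunit of the anaphase-promoting complex. For Zp2 they were Pinlyp (0.37), the endoplasmic reticulum disulphide isomerase Pdia3 (0.48) and the respiratory chain subunit Uqcrc2 (0.55). For Zp3 they were Mtfr1l (0.18), the kinase gene Mapk3 (0.41) and the sorting nexin Snx3 (0.42). Izumo1r was nearest to the tubulin Tubb2a (0.35), Lamtor5 (0.36) and Cops3 (0.40), and Cd9 to the proteasome subunit Psma7 (0.55), Zcrb1 (0.61) and Yipf1 (0.62). Astl was nearest to the phosphatase subunit Ppp4c, the Mediator subunit Med20 and the transporter Slc43a3, each at 0.32, and Oosp1 to Cyth1, the splicing factor Srsf7 and the amino acid transporter subunit Slc3a2, each at 0.25. The median over all candidates was between 1.31 for Oosp1 and 1.88 for Cd9.

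The wider pathway was followed in 6 lists of 60 genes that make, modify or release these proteins, of which 53 were tested. The calls in them can be read against the shares of all genes called, given above for each comparison, and the number of the 19 alternatives that kept a call is given beside it. In the surface family of Oosp1 (4 tested), the calls between groups were 2 lower in con-in vitro against con and 1 higher in SAHA against con-in vitro. Oosp3 was at 2291 and 1509 CPM in con and at 789.9 and 285 CPM in con-in vitro (log2 -1.82 ± 0.58, adjusted p = 0.0470, kept in 8 of 19). Plac1 was at 21.7 and 1.91 CPM in con and had 0 counts in both con-in vitro libraries. Its bound was at least 27.7-fold lower in con-in vitro, the floor being 3 counts summed over the group, but it rested on con replicate 1 and was at least 4.47-fold lower against con replicate 2 alone (kept in 14 of 19). In SAHA, at 9.22 and 5.46 CPM, Plac1 was at least 17.2-fold higher than in con-in vitro (kept in 10 of 19), a comparison in which it was named after its values were seen. It was also called in the difference of the exposure effects, as the only gene of this list (kept in 12 of 19). The in vitro effect was above the in vivo effect, with 0 counts in the in vivo PSMPs library and in both con-in vitro libraries.

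Among the tetraspanins, CD9 partners and integrins (7 tested), the only call was Itgav, an integrin subunit named after its values were seen, higher in con-in vitro than in con (log2 3.99, kept in 8 of 19). Among genes that attach the GPI anchor JUNO needs (12 tested), the only call was Pigk, a subunit of the attaching enzyme, which fell from con to con-in vitro (-2.44 ± 0.62, adjusted p = 0.0228, kept in 16 of 19). Among the transcription factors of zona genes and early oocytes (7 tested), none was called in 6 of the 8 comparisons. Tcf3, an E-box factor and partner of Figla, was lower in SAHA than in con (-2.66 ± 0.72, adjusted p = 0.0266, kept in 12 of 19), at 11.8 and 18.8 CPM against 121 and 72.5 CPM. Lhx8, a homeobox gene of early oocytes, was lower in SAHA than in con-in vitro (-2.46 ± 0.66, 0.0321, kept in 13 of 19), at 29.0 and 81.8 CPM against 235 and 376 CPM. Figla was low throughout, at 0 to 28.4 CPM, and Nobox, another oocyte homeobox gene, ran from 65.2 CPM in con replicate 1 to 603 CPM in PSMPs & OE-Hdac3 replicate 2, with 243 CPM in con replicate 2. Neither of them was called in any comparison.

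In the list of glycosylation and proprotein cleavage (12 tested), Furin had calls in 6 of the 8 comparisons. FURIN belongs to the proprotein convertases, the enzyme class that cuts zona proteins before they leave the oocyte. Furin was at 7037 and 8511 CPM in con-in vitro. It was at 231 and 192 CPM in con and, after exposure in the animal, at 84.7 CPM. It was at 37.4 and 60.9 CPM in in vitro PSMPs, at 75.1 and 80.1 CPM in SAHA, and at 292 and 218 CPM in PSMPs & OE-Hdac3. The con-in vitro libraries were far above all others. Furin was higher in con-in vitro than in con (5.201 ± 0.39, adjusted p = 9.82e-05), and it fell from con-in vitro to in vitro PSMPs (log2 -7.31 ± 0.43, 5.93e-05) and to SAHA (-6.65 ± 0.41, 6.00e-05). The difference of the exposure effects was -5.99 ± 0.52 (0.000471), and these 4 calls were kept in all 19 alternatives. Away from con-in vitro, Furin was lower in SAHA than in con (-1.44 ± 0.33, 0.0161, kept in 16 of 19) and higher in PSMPs & OE-Hdac3 than in in vitro PSMPs (2.37 ± 0.34, 0.0114, kept in 16 of 19).

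The other calls of that list were on glycan enzymes. Mgat1, which starts complex N-glycans, was lower in SAHA than in con (-2.11 ± 0.58, adjusted p = 0.0278, kept in 12 of 19). In SAHA against con-in vitro, C1galt1c1, the chaperone of an O-glycan enzyme, was higher (4.37 ± 1.23, 0.0384, kept in 10 of 19) and the galactosyltransferase gene B4galt1 was lower (-6.93 ± 1.98, 0.0399, kept in 8 of 19). Ggta1, another galactosyltransferase gene, was lower in PSMPs & OE-Hdac3 than in in vitro PSMPs (-1.55 ± 0.36, 0.0443, kept in 11 of 19). Mgat2, below the level set for naming and named after its values were seen, was called higher both in con-in vitro and in SAHA, each against con. It had 0 counts in both con libraries and also in con-in vitro replicate 1. No gene of the list was called for in vivo PSMPs against con or for PSMPs & OE-Hdac3 against in vivo PSMPs.

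The cortical granule list (11 tested) covers the traffic and fusion machinery that releases ovastacin. It held 3 higher calls in in vivo PSMPs against con, where 4.59% of all genes were called higher and the median log2 difference was 0 over the list and 0.25 over all genes. Nsf, the fusion ATPase (log2 3.03 ± 0.62, adjusted p = 0.0463), and Rab27a, a granule GTPase (2.58 ± 0.40, 0.0453), were among them, and both calls were kept in 11 of 19 alternatives. The third was the syntaxin Stx4a, named after its values were seen, at 4.43 CPM against 0 counts in con and at least 99.9-fold higher. Leaving out 1 column gave 0 to 3 calls in this list there. Rab27a was at 1452 and 1969.9 CPM in con-in vitro and at 3.81 to 91.9 CPM in every other library. It was higher in con-in vitro than in con (8.65 ± 0.47) and fell from con-in vitro to in vitro PSMPs (-6.98 ± 0.44) and to SAHA (-7.24 ± 0.44), with a difference of the exposure effects of -9.55 ± 0.58, and these 4 calls were kept in all 19 alternatives. It was higher in PSMPs & OE-Hdac3 than in in vitro PSMPs (2.52 ± 0.36, kept in 15 of 19) and in SAHA than in con (1.41 ± 0.35, kept in 15 of 19).

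Of the membrane fusion genes in that list, Stx4a had 0 counts in both con libraries and stood at 14.5 and 18.6 CPM in con-in vitro, at least 373-fold higher (kept in 18 of 19). It fell from con-in vitro to in vitro PSMPs (-4.02 ± 1.05, adjusted p = 0.0368, kept in 9 of 19), and it was called in the difference of the exposure effects, with the in vitro effect below the in vivo effect (kept in 18 of 19). Snap23 fell from con to con-in vitro (-1.62 ± 0.44, 0.0295, kept in 12 of 19), higher in SAHA than in con-in vitro (2.27 ± 0.45, 0.00942, kept in 17 of 19) and lower in PSMPs & OE-Hdac3 than in in vitro PSMPs (-2.34 ± 0.45, 0.0225, kept in 13 of 19). Vamp3 fell from con to con-in vitro (-3.60 ± 0.99, 0.0296, kept in 12 of 19) and higher in SAHA than in con-in vitro (3.24 ± 0.97, 0.0465, kept in 10 of 19). Myo5b, a vesicle motor gene, was lower in SAHA than in con (-1.15 ± 0.31, 0.0271, kept in 16 of 19) and than in con-in vitro (-1.39 ± 0.32, 0.0161, kept in 15 of 19). In all, of the 11 genes tested the list had 3 higher and 2 lower calls in con-in vitro against con, where 14.7% and 10.5% of all genes were called. SAHA against con-in vitro gave 3 higher and 3 lower (all genes 11.7% and 8.14%), and SAHA against con 3 higher and 1 lower (20.2% and 6.75%). In vitro PSMPs against con-in vitro gave 2 lower (6.78%), the difference of the exposure effects 3 lower (6.4%), and PSMPs & OE-Hdac3 against in vitro PSMPs 1 each way (1.85% higher and 2.98% lower). The calls in these counts not described above were those of Nsf, Snap25 and Stx4a, which lay outside the naming rule there. Furin and Rab27a had their highest values in con-in vitro, the group of lowest totals and of the lowest oocyte marker sums, and the part of these in the values was not tested.

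Markers of other cells were low. Cumulus and granulosa markers summed to 31.7 to 158 CPM across libraries, leukocyte markers to at most 11.7 CPM, erythroid markers to at most 3.26 CPM, fibroblast markers to at most 3.53 CPM and sperm markers to at most 7.19 CPM. Izumo1, the sperm partner of JUNO, and Acr, the acrosomal protease gene, were at 0 in every library.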

How the data were processed

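RNA counts per gene from 12 libraries of mouse oocytes were used as the authors deposited them. Per the labels' protocols, cDNA was amplified with a full-length single-cell kit and libraries were made with a transposase kit. The submitters' processing notes name fastp 0.12.4, HISAT2, featureCounts, SAMtools, Picard, DESeq2 and the build mm10, without the role or settings of each. Whether counting used strand is not given in the sources used here, so reads of overlapping genes could not be told apart. The H4K16ac CUT&Tag libraries were not analysed here.

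Groups came from the labels. The in vivo PSMPs columns were merged as their rounded mean. In R 4.3.3, edgeR 4.0.16 kept 16736 genes (filterByExpr, minimum count 10), scaled by TMM (factors 0.542 to 1.57) and fitted 1 coefficient per group with robust quasi-likelihood dispersion (5 residual degrees of freedom, biological coefficient of variation 71.9%). Contrasts were tested with the quasi-likelihood F test, adjusted by Benjamini-Hochberg over all genes, threshold 0.05. SE were derived from each F statistic with its log2 fold change. On counts simulated from the fitted dispersion, the procedure was checked only for the median log2 fold change it returned. Such a run cannot show whether that dispersion suits these libraries. Alternatives were DESeq2 1.42.0, its size factors, library totals, no filter, unmerged columns, a replicate block, only the compared groups, and leaving out each column. Floors of 3 counts cover counting error only.

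Promoters came from RefSeq (GRCm38.p6), and E-box and other motifs were searched on both strands. The members and lists were chosen with earlier results of these data known. All 7 genes were named throughout. From each list and comparison, up to 2 genes per direction of smallest p were named if past the threshold and at a mean of 10 CPM or more in the higher of the groups, and for likeness the 3 nearest named genes of at least 50 CPM.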

Additional observations from a re-analysis of the deposited data

Results flagged for a closer look

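The exposure effect on Astl differed between the culture and the animal experiment, by a test of the difference itself. The in vitro effect was 3.15 above the in vivo effect on the log2 scale (edgeR's quasi-likelihood test, adjusted p = 0.0292). In this contrast 11.3% of all genes were called, and 6 of the 10 oocyte markers were called in the direction of Astl. The contrast includes the gap between the controls, a log2 change of -2.59 in Astl for con-in vitro against con. The part of that gap and of the markers was not tested. Astl was at 163 and 241 CPM in con-in vitro against 728 and 1001 CPM in in vitro PSMPs, and at 1256 and 1177 CPM in con against 588 CPM in in vivo PSMPs. The adjusted p ran from 0.00133 to 0.0976 over the alternatives.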

How the results depend on the processing

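None of the 56 values of the 7 genes over 8 comparisons changed direction while past the threshold. The causes of the changes below were not tested.

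Of the 7 genes, the number called in in vitro PSMPs against con-in vitro was 2 and became 5 with library totals, 4 with DESeq2's Wald test, 4 with the in vivo columns as 2 libraries, 4 with only the compared groups, and 0 to 5 leaving out 1 column. In PSMPs & OE-Hdac3 against in vitro PSMPs it was 0 and became 2 without the filter, 5 with DESeq2, 1 with 2 libraries, 5 with only the compared groups and 0 to 4 leaving out 1. In PSMPs & OE-Hdac3 against in vivo PSMPs it was 0, with 6 for only the compared groups and 0 leaving out 1. For the difference of the effects it was 1 and became 2 with library totals, without the filter, with DESeq2 or with 2 libraries, 0 with only the compared groups and 0 to 2 leaving out 1. Leaving out 1 gave 0 to 4 in in vivo PSMPs against con (0), 2 to 4 in con-in vitro against con (2), 0 to 5 in SAHA against con (4, and 0 with only the compared groups) and 1 to 6 in SAHA against con-in vitro (4).

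Over all genes, counts past the threshold in in vivo PSMPs against con were 817, with 1377 without the filter, 2728 with DESeq2, 4180 with 2 libraries, 4 with the block, 0 with only the compared groups and 0 to 4336 leaving out 1. In in vitro PSMPs against con-in vitro they were 2570 (1435 higher, 1135 lower), with 4231 (3473 and 758) by library totals, 4633 with DESeq2, 3917 with 2 libraries and 1096 to 5451 leaving out 1. In con-in vitro against con they were 4205 (2452 and 1753), split 1872 and 3025 by library totals, with 836 for only the compared groups and 2615 to 6538 leaving out 1. In SAHA against con they were 4511, with 1450 for only the compared groups and 219 to 6657 leaving out 1. In SAHA against con-in vitro they were 3313 (1950 and 1363), split 3222 and 922 by library totals, with 5354 by DESeq2 and 1111 to 6401 leaving out 1. In PSMPs & OE-Hdac3 against in vitro PSMPs they were 808 (309 and 499), split 548 and 306 by library totals, with 2592 by DESeq2, 1489 with 2 libraries, 537 with the block, 5491 for only the compared groups and 0 to 2393 leaving out 1. In PSMPs & OE-Hdac3 against in vivo PSMPs they were 0, with 118 without the filter, 870 with DESeq2, 1355 with 2 libraries, 7215 for only the compared groups and 0 to 529 leaving out 1. For the difference of the effects they were 1886 (815 and 1071), split 1320 and 826 by library totals, with 4129 by DESeq2, 4013 with 2 libraries, 1210 with the block, 245 for only the compared groups and 618 to 5028 leaving out 1.

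The labels do not say whether the replicate numbers pair libraries across groups. Deviations of same-numbered libraries correlated between -0.288 and 0.0563 over genes. With 2 libraries per group, these values cannot show whether the libraries were paired. With the number as a replicate block, the 7 genes gave 0, 3, 2, 3, 5, 0, 0 and 1 calls in the order in vivo, in vitro, controls, SAHA against con, SAHA against con-in vitro, overexpression against in vitro and in vivo, and difference. The block changed 3 calls, Cd9 for SAHA against con (2.89), Zp1 in culture (2.16) and Zp3 for SAHA against con-in vitro (2.14). With 2 libraries per group and 1 for in vivo PSMPs, the number of libraries limits the precision. The depth gives floors of 0.0842 to 0.482 CPM by library totals. On that scale the lowest value of the 7 genes was above them, at 7.50 CPM for Cd9 in con-in vitro replicate 2.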
